A study of Mus musculus with 5 samples.

Results

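The urothelium is the epithelium that lines the bladder and keeps urine apart from the tissue beneath it. Water, sodium and urea cross such an epithelium through dedicated membrane proteins, and 10 genes that encode them were read here out of 24970 genes in the count files. They were taken by symbol and comprise 5 aquaporin genes (Aqp1, Aqp3, Aqp7, Aqp9 and Aqp11), the 3 subunit genes of the epithelial sodium channel (Scnn1a, Scnn1b and Scnn1g) and 2 urea transporter genes (Slc14a1 and Slc14a2). Urothelial RNA was sequenced from 3 Ncstn knockout mice (KO 1 to KO 3; genotype Krt5CreERT2;Ncstnflox/flox) and 2 wild-type mice (WT 1 and WT 2; strain C57Bl/6), all aged 10 weeks, with 1 library per mouse. Ncstn encodes nicastrin, part of the gamma-secretase complex that cuts Notch receptors and so lets them signal, and the Cre recombinase is driven by the basal keratin gene Krt5, so recombination is directed to basal cells and their descendants. The strain field of the knockouts repeats their genotype and Cre induction is not described, so loss of Ncstn cannot be told apart from strain, Cre or induction.

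Aquaporins are water channels, and Aqp3, Aqp7 and Aqp9 belong to the branch that also conducts glycerol. The epithelial sodium channel is assembled from an alpha, a beta and a gamma subunit and lets sodium enter epithelial cells at the surface facing the lumen, while the sodium pump on the opposite surface moves it out. Slc14a1 encodes UT-B, a urea transporter known from bladder urothelium, red cells and the vessels of the kidney medulla, and Slc14a2 encodes UT-A, the urea transporter of the kidney collecting duct.

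Promoter sequences are shown for Aqp3, Aqp1, Scnn1g and Scnn1b, the 4 water and sodium channel genes with the highest levels in these libraries. Each is the 250 bases before the RefSeq start (GRCm38.p6), given 5′ to 3′ on the strand of the gene. Capitals mark 4 short words searched on both strands: TATAAA (known as the TATA box), GGGCGG (known as the GC box), TGGGAA (core of the site bound by RBPJ, the DNA-binding partner of Notch) and AGAACA (a word of the element bound by the glucocorticoid and mineralocorticoid receptors).
Aqp3 (chr4:41098184-41098433, minus strand): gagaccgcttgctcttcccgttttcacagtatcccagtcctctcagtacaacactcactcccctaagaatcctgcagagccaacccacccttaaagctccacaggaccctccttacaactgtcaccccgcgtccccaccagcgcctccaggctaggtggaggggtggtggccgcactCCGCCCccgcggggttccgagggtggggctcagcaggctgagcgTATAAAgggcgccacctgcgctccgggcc
Aqp1 (chr6:55336049-55336298, plus strand): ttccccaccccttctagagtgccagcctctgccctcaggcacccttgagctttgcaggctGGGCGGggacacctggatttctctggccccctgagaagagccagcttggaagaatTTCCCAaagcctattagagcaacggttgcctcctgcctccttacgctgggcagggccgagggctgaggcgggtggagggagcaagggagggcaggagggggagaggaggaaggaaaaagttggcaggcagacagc
Scnn1g (chr7:121734229-121734478, plus strand): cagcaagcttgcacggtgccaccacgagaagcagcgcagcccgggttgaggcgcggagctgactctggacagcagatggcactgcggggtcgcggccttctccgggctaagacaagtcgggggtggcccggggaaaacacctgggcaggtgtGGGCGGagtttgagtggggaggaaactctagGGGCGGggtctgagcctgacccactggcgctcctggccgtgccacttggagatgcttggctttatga
Scnn1b (chr7:121864788-121865037, plus strand): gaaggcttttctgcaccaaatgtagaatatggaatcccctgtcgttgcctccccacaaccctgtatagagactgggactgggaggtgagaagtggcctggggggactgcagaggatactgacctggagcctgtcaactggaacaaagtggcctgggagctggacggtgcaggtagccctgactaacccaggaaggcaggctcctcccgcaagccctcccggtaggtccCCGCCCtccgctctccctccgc

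Aqp3 has a TATA box that begins 29 bases before the start, a word found in 12.4% of all 32851 RefSeq promoter windows of this length, and a GC box. Scnn1g has 2 GC boxes, Scnn1b and Aqp1 have 1 each, and GC boxes occur in 32.7% of all windows. The RBPJ word occurs in Aqp1, beginning 135 bases before a RefSeq start that lies upstream of the GENCODE start, and in 21.6% of all windows. The steroid receptor word occurs in 16.1% of all windows and in none of these 4. GC content was 64.0% for Aqp3, 62.0% for Aqp1, 65.2% for Scnn1g and 60.8% for Scnn1b, against a median of 52.4% over all windows.

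Gene counts per library ran from 12608836 to 27188499. Ncstn itself had 114 (KO 1), 117 (KO 2) and 123 (KO 3) counts per 1000000 (CPM), against 144 (WT 1) and 130 (WT 2), a log2 fold change of -0.21 that missed the threshold (edgeR adjusted p = 0.133). Which exons are floxed is not stated in the labels, so whole-gene counts from mixed tissue are a weak check of the genotype. Uroplakins, which mark urothelium, were abundant in every library, with Upk2 at 1725, 1601 and 1552 CPM in the knockouts and 856 and 924 CPM in the wild types. Dissected tissue also held other cell types, and the summed fibroblast markers came to 9160, 10700 and 10800 CPM in the knockouts against 17500 and 15400 CPM in the wild types.

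By a rule that asked for at least 1 read per kb of exon per 1000000 in every library, 6 of the 10 genes were expressed: Aqp3, Aqp1, Slc14a1, Scnn1g, Scnn1b and Scnn1a. Levels of different genes are compared on this per-length scale. Aqp3 stood far above the others, at 538, 565 and 531 reads per kb per 1000000 in the knockouts and 523 and 579 in the wild types, which is above 99.7% of the tested genes. Aqp1 followed at 93.3, 118 and 92.2 in the knockouts and 81.1 and 83.2 in the wild types. Slc14a1 came next at 97.5, 89.1 and 76.9 in the knockouts and 60.5 and 58.8 in the wild types. Their order was not the same in every library, since Aqp1 was above Slc14a1 in 4 of 5 libraries and below it in KO 1. The other steps between expressed genes, from Aqp3 to Aqp1, Slc14a1 to Scnn1g, Scnn1g to Scnn1b and Scnn1b to Scnn1a, held in 5 of 5 libraries with ranges that did not overlap.

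The 3 channel subunits were expressed unequally. Per length, Scnn1g stood at 40.4, 43.0 and 43.9 reads per kb per 1000000 in the knockouts and 42.0 and 38.3 in the wild types, and Scnn1b at 19.7, 19.8 and 16.9 in the knockouts and 20.8 and 16.4 in the wild types. Scnn1a was lower still, at 3.06, 2.93 and 1.79 in the knockouts and 1.69 and 1.59 in the wild types. The alpha subunit, which Scnn1a encodes, thus made up 4.84%, 4.45% and 2.86% of the summed subunit level in KO 1, KO 2 and KO 3 and 2.63% and 2.82% in WT 1 and WT 2.

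The remaining 4 genes missed the rule. Aqp9, an aquaglyceroporin of liver and white blood cells, lay near the limit at 1.60, 1.31 and 0.695 reads per kb per 1000000 in the knockouts and 1.10 and 1.45 in the wild types. Aqp11, which encodes an intracellular member of the family, stood at 0.512, 0.536 and 0.488 in the knockouts and 0.449 and 0.607 in the wild types, on 59 to 128 counts per library. Aqp7, the glycerol channel of fat cells, had 4, 8 and 0 counts in KO 1, KO 2 and KO 3 and 1 and 0 counts in WT 1 and WT 2. The 8 fat cell markers summed to 492, 443 and 602 CPM in the knockouts and 466 and 542 CPM in the wild types. Nearly all of that came from Fabp4, at 393 to 549 CPM in the knockouts and 408 and 495 CPM in the wild types, and Plin4, at 42.3 to 52.9 CPM in the knockouts and 57.1 and 46.8 CPM in the wild types. The other 6, the defining gene Adipoq among them, had 0 to 3 counts in each library. Slc14a2 had 8, 4 and 3 counts in the knockouts and 2 and 4 in the wild types. The summed counts gave a ratio of knockout to wild type of 7.17 for Aqp7 (95% exact interval 1.06 to 307) and 1.49 for Slc14a2 (0.548 to 4.70), and these intervals cover counting error alone.

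**Figure D1:**
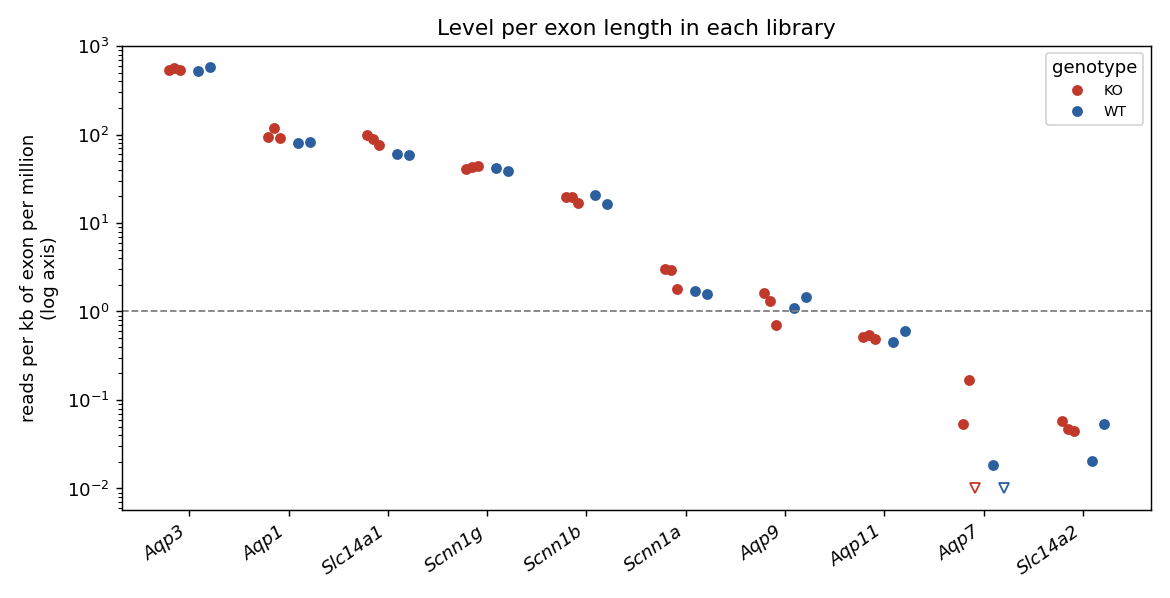
Level per exon length of the 10 genes in each library (reads per kb of exon per 1000000, log axis), with the knockouts in red left of the wild types in blue; the dashed line is the limit of 1, and open triangles at the bottom edge stand for a count of 0. Aqp3 sits near 547 and the genes range down to about 0.05 for Aqp7 and Slc14a2.

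Of the rest of the aquaporin family, Aqp4, Aqp8 and Aqp12 had no count in any library, which allows up to 0.0335 CPM over the 5 libraries together. Aqp2, the vasopressin-regulated channel of the collecting duct, had 1 count in all, in KO 1. Aqp5, a water channel of secretory epithelia, was at 0.452, 0.541 and 0.467 CPM in the knockouts and 1.05 and 1.19 CPM in the wild types, on 6 to 20 counts per library. Its values did not overlap between genotypes, and its log2 fold change of -1.19 ± 0.41 (SE) missed the threshold (edgeR adjusted p = 0.0654).

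Of the 10 genes, 6 lie in neighbouring pairs on GRCm38. Aqp7 and Aqp3 are 44.6 kb apart on chromosome 4 with no protein-coding gene between them, and the pair holds both the highest and one of the lowest levels. Scnn1g (chr7:121734479-121768475) and Scnn1b (chr7:121865038-121918514) are 96.6 kb apart on the same strand, and both are expressed. Slc14a1 (chr18:78100091-78142119) and Slc14a2 (chr18:78146148-78596942) are 4.03 kb apart, with Slc14a1 expressed and Slc14a2 near 0. No exon of any of the 10 genes overlaps an exon of another annotated gene in GENCODE vM21; the gene models used for the counting are not stated.

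The comparison of genotypes asks how these transport genes stand in urothelium in which Ncstn is targeted. Of 8 genes that passed the filter on low counts, Slc14a1 rose in the knockouts, none fell and 7 did not pass (edgeR quasi-likelihood test, adjusted over 14779 genes at a threshold of 0.05). Over all tested genes, 9.64% rose and 10.0% fell, so 1 of 8 is near the background. The median log2 fold change was -0.02 over the 4 tested aquaporins and 0.08 over the 3 channel subunits, against 0.01 over all tested genes. Aqp7 and Slc14a2 did not pass the filter. With no filter, edgeR gave an adjusted p of 0.226 for Aqp7 and 0.739 for Slc14a2.

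Slc14a1 was at 390, 356 and 307 CPM in the 3 knockouts (KO 1 to KO 3 in order), against 242 and 235 CPM in WT 1 and WT 2. Each knockout library was above both wild types. The increase was 1.47-fold (log2 fold change 0.56 ± 0.12 (SE), 95% interval 0.30 to 0.82, n = 3 and 2, edgeR adjusted p = 0.00963). The call was lost without WT 1 (log2 fold change 0.57, edgeR adjusted p = 0.0729) and without WT 2 (0.52, edgeR adjusted p = 0.0661), where the lone wild type is assumed to vary like the knockouts. In bulk tissue, more cells of a type and more RNA per cell cannot be told apart.

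**Figure D2:**
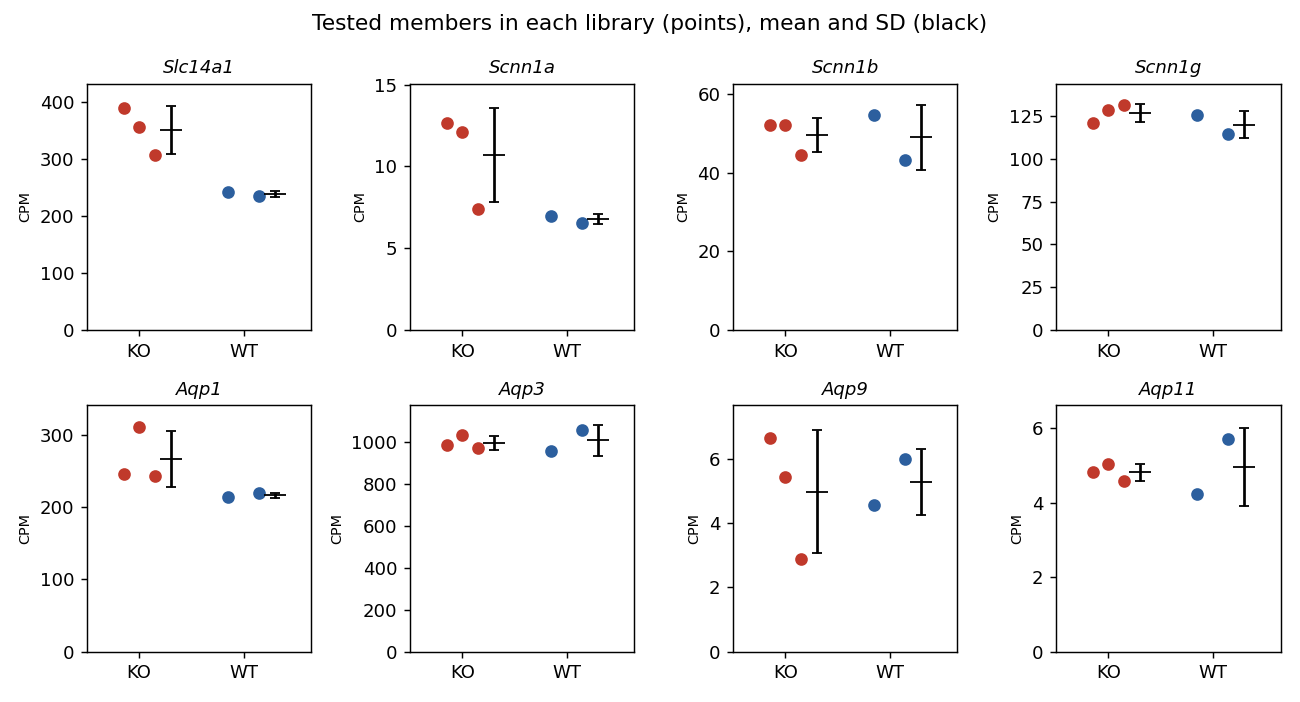
CPM of the 8 tested genes in each library, knockouts in red on the left and wild types in blue on the right, with the mean and SD in black; each axis starts at 0. Slc14a1 separates the genotypes, with 307 CPM or more in the knockouts and 242 CPM or less in the wild types. Scnn1a (7.40 or more against 6.999 or less) and Aqp1 (242 or more against 219 or less) also do not overlap, though neither passed the test. Aqp3, Aqp9, Aqp11, Scnn1b and Scnn1g overlap.

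Summed pan-epithelial and umbrella cell markers were higher in every knockout, as Slc14a1 was, while summed basal cell markers overlapped. Beside the marker counts below, 9.64% of all tested genes rose. The 10 pan-epithelial markers summed to 9150, 9230 and 8410 CPM in the knockouts and 6660 and 7870 CPM in the wild types, and 3 of the 10 rose (0 without WT 1, 1 without KO 1, 6 without KO 3). The 9 umbrella cell markers, which mark the layer facing the urine, summed to 16900, 16000 and 14900 CPM in the knockouts and 9910 and 10800 CPM in the wild types, and 7 of the 9 rose (2 without WT 1, 4 without KO 1, 3 without KO 2). Per 1000 counts of pan-epithelial markers, Slc14a1 had 42.6, 38.6 and 36.5 counts in the knockouts and 36.3 and 29.9 in the wild types, with KO 3 next to WT 1 (exact two-sided permutation p = 0.2, the smallest that 3 against 2 libraries can give). Per 1000 counts of umbrella cell markers, it had 23.1, 22.3 and 20.6 counts in the knockouts and 24.4 and 21.7 in the wild types, which overlapped. The basal cell markers summed to 5480, 6310 and 3700 CPM in the knockouts and 3830 and 4580 CPM in the wild types. Per 1000 counts of these basal markers, Slc14a1 had 71.1, 56.5 and 83.0 in the knockouts and 63.1 and 51.3 in the wild types, which overlapped. With libraries scaled to the pan-epithelial sum, the log2 fold change of Slc14a1 was 0.25 with an edgeR adjusted p of 0.198, while the median over all genes moved to -0.30. The part of these markers in the Slc14a1 result was not tested beyond these values.

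**Figure D3:**
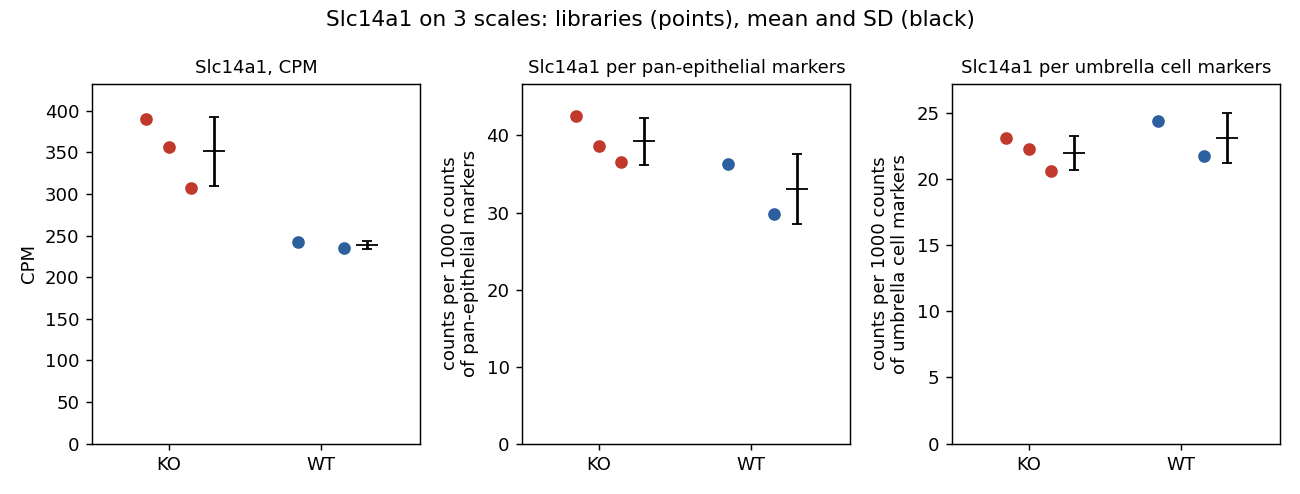
Slc14a1 in each library as CPM, per 1000 counts of pan-epithelial markers and per 1000 counts of umbrella cell markers, knockouts in red on the left, wild types in blue on the right, mean and SD in black, axes from 0. The genotypes are apart on the CPM scale, nearly touch at 36.5 (KO 3) and 36.3 (WT 1) on the pan-epithelial scale, and overlap on the umbrella cell scale.

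Red cells also carry UT-B and aquaporin 1. Of their markers, Alas2 had 3.50, 3.55 and 1.95 CPM in the knockouts and 1.46 and 1.81 CPM in the wild types, and Slc4a1 was under 0.5 CPM in every library. The 6 globin genes on the list were at 0 in all libraries; they have near-identical copies whose reads may not be counted, so they check nothing. The 11 listed genes summed to 4.40, 3.85 and 2.65 CPM in the knockouts and 3.55 and 3.28 CPM in the wild types. Of the 2 tested, Epb42 fell and Alas2, at 0.91 on the log2 scale, missed the threshold (edgeR adjusted p = 0.0875). On this list 1 gene rose and 1 fell without KO 3, and without WT 1 the 1 gene tested was not called.

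Scnn1a was at 12.6, 12.1 and 7.40 CPM in the 3 knockouts, against 6.999 and 6.55 CPM in WT 1 and WT 2. All 3 knockouts were above both wild types, although KO 3 lay closer to them than to the other knockouts. The log2 fold change was 0.68 ± 0.23 (SE), with a 95% interval of 0.16 to 1.19, and it missed the threshold (edgeR adjusted p = 0.0650). It passed without KO 3 (log2 fold change 0.85, edgeR adjusted p = 0.00209) and with no filter on low counts (edgeR adjusted p = 0.00677). Without KO 1 (0.53, edgeR adjusted p = 0.202) or KO 2 (0.58, edgeR adjusted p = 0.161) it did not pass. The log2 fold change was 0.72 without WT 1 and 0.61 without WT 2. With libraries scaled to the pan-epithelial sum, the log2 fold change was 0.35 (edgeR adjusted p = 0.269). Scnn1a had, per 1000 counts of pan-epithelial markers, 1.38, 1.31 and 0.879 counts in the knockouts and 1.05 and 0.832 in the wild types, which overlapped. It also overlapped per 1000 counts of umbrella cell markers, at 0.749, 0.756 and 0.496 in the knockouts and 0.706 and 0.606 in the wild types. Per 1000 counts of basal cell markers, Scnn1a had 2.31, 1.92 and 2.00 in the knockouts and 1.83 and 1.43 in the wild types, which did not overlap. Its values rest on 94 to 336 counts per library.

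The partner subunits overlapped between genotypes in CPM and per pan-epithelial or basal cell marker counts. Per 1000 counts of umbrella cell markers both were lower in the knockouts without overlap. There Scnn1b had 3.08, 3.26 and 2.98 in the knockouts and 5.53 and 3.99 in the wild types. For Scnn1g these values were 7.16, 8.04 and 8.79 in the knockouts and 12.7 and 10.6 in the wild types. Scnn1g was at 121, 129 and 131 CPM in the knockouts and 126 and 115 CPM in the wild types (log2 fold change 0.08 ± 0.09 (SE), 95% interval -0.13 to 0.29, edgeR adjusted p = 0.587). Scnn1b was at 52.0, 52.1 and 44.5 CPM in the knockouts and 54.7 and 43.1 CPM in the wild types (log2 fold change 0.02 ± 0.13 (SE), 95% interval -0.26 to 0.30, edgeR adjusted p = 0.943). Per length, Scnn1a was 0.155, 0.148 and 0.106 of Scnn1b in the knockouts and 0.0815 and 0.0968 in the wild types, and these did not overlap (exact two-sided permutation p = 0.2). Against Scnn1g, the ratio was 0.0757, 0.0680 and 0.0408 in the knockouts and 0.0403 and 0.0414 in the wild types, with KO 3 between them.

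Aqp1, a water channel that also marks endothelium, was at 245, 310 and 242 CPM in the knockouts, against 213 and 219 CPM in the wild types. The genotypes did not overlap, yet the difference missed the threshold (log2 fold change 0.30 ± 0.12 (SE), 95% interval 0.03 to 0.57, edgeR adjusted p = 0.112). The endothelial markers summed to 512, 617 and 541 CPM in the knockouts and 734 and 701 CPM in the wild types, and 5 of 12 fell while none rose (3 fell without WT 1). The share that fell over all tested genes was 10.0%. Per 1000 counts of endothelial markers, Aqp1 had 478, 503 and 448 counts in the knockouts and 290 and 312 in the wild types, which did not overlap. This was not particular to Aqp1, since every other tested member except Aqp9 was also higher in the knockouts without overlap on this scale. Aqp3, for example, had 1922, 1676 and 1794 in the knockouts and 1303 and 1511 in the wild types. Per 1000 counts of pan-epithelial markers Aqp1 had 26.8, 33.6 and 28.8 in the knockouts and 32.0 and 27.8 in the wild types, which overlapped. With libraries scaled to those markers its log2 fold change was -0.0075. Among the 8 tested transport genes, 3 (Slc14a1, Scnn1a and Aqp1) had knockout values above all wild-type values and none had them below; over all tested genes, the values were apart with the knockouts higher in 25.9% and lower in 25.1%.

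Aqp3, the main aquaporin of urothelium by level, was at 985, 1034 and 971 CPM in the knockouts and 956 and 1059 CPM in the wild types. The values overlapped and the log2 fold change was -0.02 ± 0.11 (SE), with a 95% interval of -0.26 to 0.23 (edgeR adjusted p = 0.936). With libraries scaled to the pan-epithelial sum it was -0.32, which missed the threshold (edgeR adjusted p = 0.0717). Aqp3 had, per 1000 counts of pan-epithelial markers, 108, 112 and 115 counts in the knockouts and 144 and 135 in the wild types, which did not overlap. Relative to 1000 counts of umbrella cell markers it had 58.3, 64.7 and 65.1 in the knockouts and 96.5 and 98.0 in the wild types, which did not overlap either. On that scale Aqp1, Aqp9, Aqp11, Scnn1b and Scnn1g were also lower in the knockouts without overlap, while Slc14a1 and Scnn1a overlapped. Relative to 1000 counts of basal cell markers Aqp3 had 180, 164 and 262 in the knockouts and 250 and 231 in the wild types, which overlapped. The ratio of Slc14a1 to Aqp3 within a library did not overlap between genotypes, with values of 0.396, 0.344 and 0.316 in the knockouts and 0.253 and 0.222 in the wild types (exact two-sided permutation p = 0.2). Of the summed per-length level of the 5 aquaporins, Aqp3 took 84.9%, 82.5% and 85.0% in the knockouts and 86.4% and 87.2% in the wild types.

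Aqp9 was at 6.62, 5.41 and 2.88 CPM in the knockouts and 4.54 and 5.99 CPM in the wild types, and Aqp11 at 4.82, 5.05 and 4.59 CPM in the knockouts and 4.23 and 5.72 CPM in the wild types. Both overlapped, and their 95% intervals were wide, at -0.73 to 0.66 for Aqp9 and -0.52 to 0.45 for Aqp11 on the log2 scale. White blood cells are a known source of Aqp9, and the 12 neutrophil and monocyte markers summed to 153, 236 and 204 CPM in the knockouts and 203 and 227 CPM in the wild types. Of the 11 tested, 5 rose and 2 fell (2 and 1 without WT 1, 3 and 1 without WT 2, and 3 and 2 without KO 1 or KO 2). Of all tested genes, 9.64% rose and 10.0% fell. Among the 5 markers that rose, S100a8 was at 9.67, 15.9 and 2.96 CPM in the knockouts. It was at 0.0522 and 0.0697 CPM in the wild types, where each library had 1 count. The 2 markers that fell were Ccr2 and Lyz2. Ccr2 was at 1.96, 1.93 and 3.19 CPM in the knockouts and 10.86 and 10.94 CPM in the wild types. Lyz2 was at 50.1, 81.3 and 98.5 CPM in the knockouts and 122.3 and 146.8 CPM in the wild types. The part of white blood cells in the Aqp9 values was not tested.

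**Figure D4:**
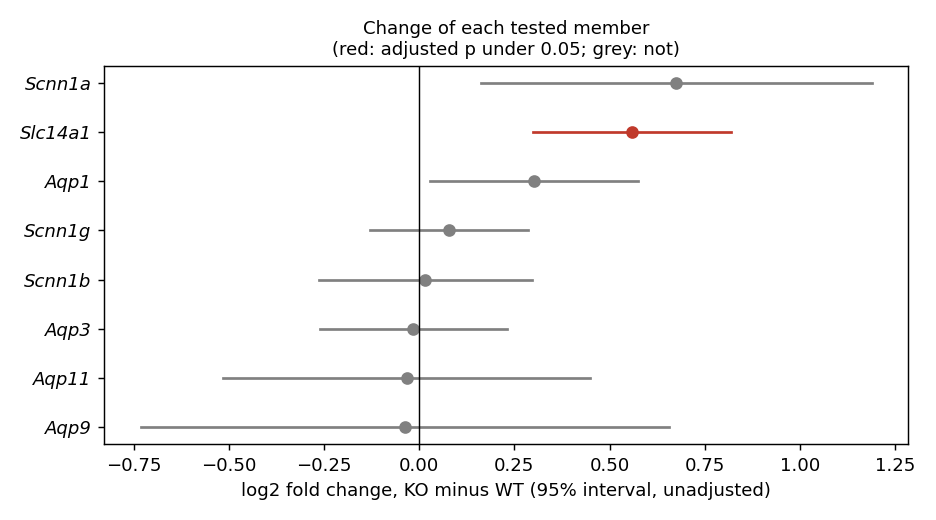
Log2 fold change, knockout minus wild type, of the 8 tested genes with the unadjusted 95% interval; red marks an adjusted p under 0.05 and grey the others. Slc14a1 is the gene in red at 0.56, Scnn1a lies at 0.68 with a wider interval, and Aqp3, Aqp9, Aqp11, Scnn1b and Scnn1g lie within 0.1 of 0.

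The channel is controlled by steroid hormones, kinases, ubiquitin ligases and proteases. Of 20 tested genes on a list of such regulators, 10 rose, 1 fell and 9 did not pass, while 9.64% rose and 10.0% fell over all tested genes. The median log2 fold change of the list was 0.34, against 0.01 over all genes and 0.36 over the pan-epithelial markers. This list was chosen with earlier results of these data known, so its counts and median are not an independent test. Tsc22d3, a corticosteroid-induced gene, was at 129, 127 and 139 CPM in the knockouts and 48.0 and 45.7 CPM in the wild types (edgeR adjusted p = 1.77e-05). Sgk1, the kinase that keeps the channel at the surface, was at 112, 115 and 105 CPM in the knockouts and 61.6 and 52.3 CPM in the wild types (edgeR adjusted p = 0.000389). Nedd4l, the ubiquitin ligase that removes the channel, rose 1.44-fold (edgeR adjusted p = 0.0126; 0.0690 without WT 1 and 0.0928 without WT 2). Per1, a clock gene known to act on Scnn1a in the kidney, rose 1.85-fold. The glucocorticoid receptor gene Nr3c1 was the regulator that fell, at 50.6, 61.2 and 54.9 CPM in the knockouts and 99.9 and 90.3 CPM in the wild types (edgeR adjusted p = 0.00119). The mineralocorticoid receptor gene Nr3c2 had a log2 fold change of -0.15 and the channel-activating protease gene Prss8 one of 0.31, with edgeR adjusted p of 0.515 for Nr3c2 and 0.0704 for Prss8. Hsd11b2, which protects the mineralocorticoid receptor from glucocorticoids, had 5 to 10 counts per library. The regulators that rose came to 4 when WT 1 was left out, 5 for WT 2, 6 for KO 1 and 5 for KO 2, while 4 rose and 4 fell when libraries were scaled to the pan-epithelial sum.

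Of the sodium pump genes, Atp1b1, which encodes a beta subunit, was at 169, 149 and 106 CPM in the knockouts and 57.3 and 53.5 CPM in the wild types. All 3 knockouts were above both wild types (2.55-fold, edgeR adjusted p = 0.000863). Atp1b2, another beta subunit gene, fell to 5.27, 6.135 and 8.565 CPM in the knockouts, against 11.65 and 9.55 CPM in the wild types (edgeR adjusted p = 0.0486). That call was lost without WT 1 (edgeR adjusted p = 0.336), WT 2 (0.0976), KO 1 (0.152) or KO 2 (0.108).

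**Figure D5:**
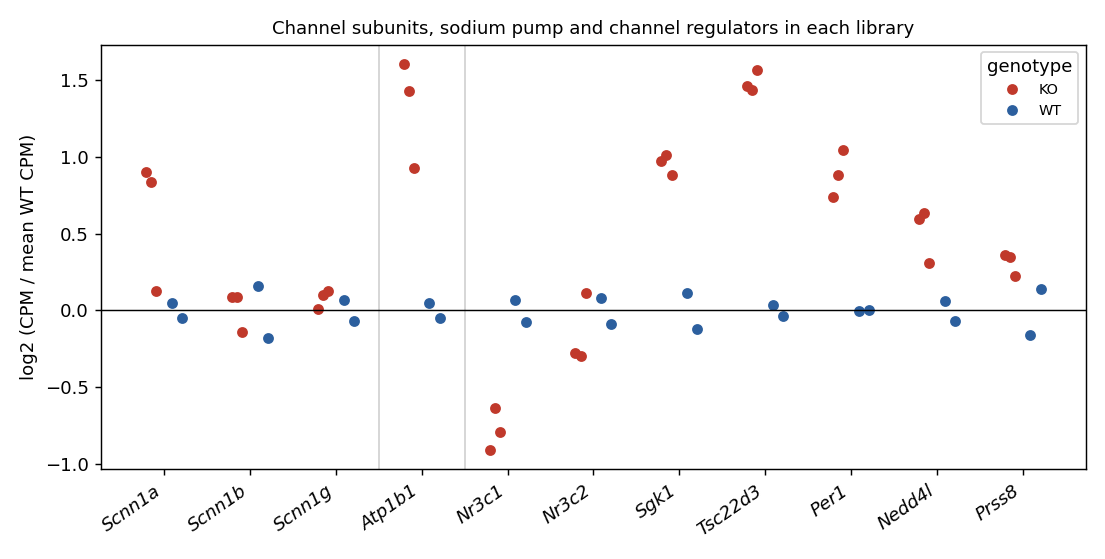
CPM of each library relative to the wild-type mean (log2 scale) for the channel subunits on the left, the pump gene Atp1b1 in the middle and channel regulators on the right, knockouts in red left of wild types in blue. Scnn1b and Scnn1g stay near 0 in both genotypes, Tsc22d3, Sgk1, Per1 and Atp1b1 lie above 0 in all 3 knockouts, and Nr3c1 lies below.

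Genes around urea, water balance and glycerol gave a mixed picture. For the counts below, the shares over all tested genes were 9.64% that rose and 10.0% that fell. These lists, too, were chosen with earlier results of these data known. Arg2, the arginase that makes urea outside the liver, rose to 50.6 ± 4.25 CPM in the knockouts, against 24.6 ± 0.35 CPM in the wild types (SD, n = 3 and 2, edgeR adjusted p = 0.000356), while Arg1 had 2 to 10 counts per library. Of the 5 tested genes of the urea cycle and arginine transport, 2 rose and 1 fell (1 and 1 without WT 1, WT 2, KO 1 or KO 2). Of 6 tested tonicity response genes, 2 rose, among them the inositol carrier gene Slc5a3 (3.53-fold, edgeR adjusted p = 5.07e-05), while the regulator gene Nfat5, at -0.24 on the log2 scale, missed the threshold (edgeR adjusted p = 0.206). Of 6 tested vasopressin signalling genes, 1 rose and 4 fell (0 and 1 without WT 1, 0 and 3 without WT 2, KO 1 or KO 2), with Avpr1a 2.01-fold lower and the kidney receptor gene Avpr2 at 0 to 5 counts per library. Of 8 glycerol and lipid genes, Mgll fell (0 fell without WT 1, and 1 rose and 2 fell without KO 3), and of 13 other ion transport genes, 4 rose (2 without WT 1 or WT 2).

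The genes whose profiles over the 5 libraries lay nearest were found by the root mean square difference of centred log2(CPM + 1) among genes at 10 CPM or more. Nearest to Slc14a1 were Klf16, Raver1 and the uroplakin gene Upk1b, at 0.029, 0.031 and 0.039. Nearest to Aqp3 were Rint1, Polr3gl and Ttc21b, at 0.013, 0.014 and 0.014, and nearest to Aqp1 were Papln, Hddc2 and Lmnb2, at 0.036, 0.037 and 0.038. The measure was taken over 5 libraries and 10248 candidate genes, and Upk1b is also one of the umbrella cell markers used above.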

How the data were processed

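Per the labels' protocols, total RNA from urothelium freed of muscle went into TruSeq libraries. The deposited values are raw gene counts, 1 file per library, and the submitters' processing notes list build mm10 with the tools DESeq2, HISAT2 2.1.0 and HTSeq 0.11.1. Strandedness and gene models of the counting are not stated there. The 5 summary entries of the counter were left out, and genes held 49.3% (WT 1) to 60.6% (KO 3) of the tallied reads. The ribosomal RNA entry Rn45s held 1.53%, 1.14% and 0.608% of gene counts in KO 1, KO 2 and KO 3. In WT 1 and WT 2 it held 7.84% and 3.23%, so this share differed with genotype. The filterByExpr rule (count 10, total 15) kept 14779 genes, which were scaled with TMM factors and tested with the edgeR quasi-likelihood test, adjusted by Benjamini-Hochberg (R 4.3.3, edgeR 4.0.16, limma 3.58.1, DESeq2 1.42.0). CPM were computed on TMM-scaled library sizes. Standard errors and 95% intervals were derived from the fold change and its F statistic. Levels per length divide CPM by the merged exon length of GENCODE vM21. Each library was taken as 1 mouse, as the design text describes separate mice, and replicates of a genotype differed by more than counting error. The members and gene lists were chosen with earlier results of these data known. All 10 members are named, together with fixed regulators, the genes of lowest p (at most 4) in every further list and the 3 nearest profiles of the 3 most abundant members. Slc4a1, Adipoq and Ncstn were added for checks. Some genes that the rule names are not reported here. The alternatives were other scalings, filters and tests, a replicate block, omission of single libraries and, chosen after seeing the data, scaling to pan-epithelial markers. Promoters are from RefSeq (GRCm38.p6), and windows were read for 7 of the 10 members. Entries for members on chromosome 18, where Slc14a1 and Slc14a2 lie, were left out.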

Additional observations from a re-analysis of the deposited data

How the results depend on the processing

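The rise of Slc14a1 passed under every alternative with all 5 libraries except scaling to the pan-epithelial markers, and its log2 fold change without 1 library ranged from 0.48 (without KO 1) to 0.63 (without KO 3). Members called higher numbered 1 and became 3 with no filter on low counts, 3 with the replicate block and 0 with pan-epithelial scaling, and 0 to 2 when a library was left out. The added calls were Scnn1a (log2 fold change 0.87, edgeR adjusted p = 5.32e-05 with the replicate block) and Aqp1 (0.31, edgeR adjusted p = 0.0481 with no filter; 0.35, edgeR adjusted p = 0.0244 with the replicate block). The members expressed numbered 6, and 7 at a limit of 0.5, 5 at a limit of 2 and 7 with the longest transcript as length. Genes changed in all numbered 2907 and ranged from 715 to 3989 without 1 library (340 to 1743 higher, 375 to 2246 lower). They numbered 4637 (2211 higher, 2426 lower) with the replicate block, and 367 higher and 3380 lower with pan-epithelial scaling; upper-quartile scaling put 40.5% of calls on the higher side, against 49.0%. Replicate numbers are not known to pair animals, and deviations of KO 1 and WT 1 correlated at -0.10 and those of KO 2 and WT 2 at 0.09 across genes. With 2 wild types, the deviation of WT 2 mirrors that of WT 1, so these are not separate checks of pairing. Deviations of KO 3 and WT 1, which do not share a number, correlated at 0.14.

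Directions turned for 6 members, none past the test in the turned direction. With the replicate block the log2 fold changes were 0.0039 for Aqp3, 0.22 for Aqp9 and 0.012 for Aqp11. Without 1 library, Aqp3 ranged from -0.093 (WT 1 left out) to 0.043 (WT 2 left out), Aqp9 from -0.32 (KO 1 left out) and Aqp11 from -0.25 (WT 1 left out). Without WT 2 they were 0.043 for Aqp3, 0.14 for Aqp9, 0.17 for Aqp11, -0.16 for Scnn1b and -0.0026 for Scnn1g, and without KO 3 Aqp9 was at 0.20. Scnn1b was at -0.025 with upper-quartile scaling, -0.0039 with library totals, -0.0038 with a filter of 1 CPM, -0.02 without KO 1 and -0.03 without KO 2. With pan-epithelial scaling Aqp1 was at -0.0075, Scnn1b at -0.31 and Scnn1g at -0.23. Aqp7 and Slc14a2, at 0 to 8 counts per library, entered the test with no filter on low counts and were not called.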
